A study of Mus musculus with 27 samples.

Results

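The cardiovascular connexins are the gap junction proteins that couple cells of the heart and its vessels, and 4 genes were followed here: Gja1 (Cx43), Gja4 (Cx37), Gja5 (Cx40) and Gjc1 (Cx45). They were chosen by name, from their known expression in heart muscle and vessel wall, and all 4 were found among the 24025 genes of the bulk table and the 19010 gene symbols of the single-cell table. Connexins assemble into hexameric hemichannels that dock between neighbouring cells and let ions and small molecules pass. In heart muscle these channels carry the electrical impulse: Cx43 is known as the main connexin of working ventricular muscle, Cx40 of the atria, trabeculae and His-Purkinje system, and Cx45 of the early heart and the nodes. Cx37 and Cx40 are the connexins of endothelium, above all in arteries.

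The study measured messenger RNA in hearts of C57BL/6 mice with deletions at Hand2os1 (Hand2as in the labels), a long non-coding RNA gene that neighbours Hand2, a transcription factor gene of heart development. Allele F is a deletion of the whole gene, allele D a deletion of its 3′ distal end, and + the intact allele. At E11.5 (E for embryonic day) there were 3 bulk libraries of F/+ and 3 of F/F hearts. At E16.5 there were 3 of F/+ and 3 of F/F ventricles, so that both embryonic controls carried 1 deleted copy. At 8 weeks there were 5 libraries of +/+, 2 of D/+ and 6 of D/D cardiomyocytes. The labels number the replicates but name no animals, so p-values measure the spread between these samples. How many animals stand behind a bulk library is not known, and a library is called a heart or ventricle only after its tissue. Stage cannot be told apart from tissue, and no stage holds both alleles. At E11.5 there was also 1 droplet single-cell library of +/+ and 1 of F/F hearts, each from a pool of 6 hearts, dissociated with trypsin and sorted for living cells with the dye 7-AAD.

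Bulk values were taken as FPKM, a unit that was read off the values. FPKM are scaled to transcript length and library size, and only on that reading are levels of different genes set side by side. Their read depth is not known. The columns summed to between 334194 and 586795 FPKM. Haemoglobin genes took 10.4% to 29.7% of the FPKM at E11.5 and at most 2.42% later. The target, listed as LOC102636514, was at 0 FPKM in all 6 E11.5 libraries, at 0.37 to 1.40 in E16.5 F/+ and at 0 in E16.5 F/F. At 8 weeks it lay at 6.90 to 13.5 FPKM in 4 +/+ libraries and at 0 in the library labelled +/+ replicate 5, which went against its label. It lay at 5.25 and 6.17 in D/+ and at 0 to 2.67 in D/D. The library labelled +/+ replicate 5 and D/D replicate 6 stood apart from the other 11 at 8 weeks: 2745 of 10249 genes separated this pair from the rest, against 1153 for the next pair. The 13 libraries also fell by their values into a set A of 5 (+/+ replicates 1 and 2, D/+ replicate 1, D/D replicates 1 and 2) and a set B of 8. In the single-cell data the target (Gm28063) gave 1 UMI (a counted molecule) in the library labelled +/+ and 9 in that labelled F/F. As F deletes the whole gene, these few UMIs went against the labels, which were kept. Where +/+ or F/F is written for these libraries, the label is meant. Also, 18 cell barcodes occurred in both libraries.

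Promoter sequence of the members is shown because their levels differed between cell types and stages. RefSeq's table (GRCm38.p6) held a promoter for 3 of the 4 members. The 250 bases before the gene start follow, on the coding strand of each gene, at chr10:56377050-56377299 (plus strand) for Gja1, chr4:127314040-127314289 (minus strand) for Gja4 and chr3:97032152-97032401 (plus strand) for Gja5. Capitals mark the AP-1 motif TGANTCA in Gja1 and the GC box GGGCGG in Gja4 and Gja5.
Gja1: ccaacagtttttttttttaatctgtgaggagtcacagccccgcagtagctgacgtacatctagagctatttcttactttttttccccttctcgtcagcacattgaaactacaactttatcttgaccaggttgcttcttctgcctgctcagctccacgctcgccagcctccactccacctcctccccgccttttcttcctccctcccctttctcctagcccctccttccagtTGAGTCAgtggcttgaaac
Gja4: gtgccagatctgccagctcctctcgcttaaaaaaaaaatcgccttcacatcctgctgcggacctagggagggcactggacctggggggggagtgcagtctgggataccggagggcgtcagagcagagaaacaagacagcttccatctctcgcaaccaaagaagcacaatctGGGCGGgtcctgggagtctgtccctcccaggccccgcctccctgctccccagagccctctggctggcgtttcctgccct
Gja5: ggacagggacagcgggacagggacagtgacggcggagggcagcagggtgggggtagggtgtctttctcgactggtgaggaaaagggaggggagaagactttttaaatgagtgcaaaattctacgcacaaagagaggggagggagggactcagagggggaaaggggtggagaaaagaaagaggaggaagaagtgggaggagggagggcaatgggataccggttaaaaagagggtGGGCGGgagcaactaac
The AP-1 match in Gja1 began 19 bases before the start, and 6.75% of 32851 promoter windows of this length held the motif. The GC box began 79 bases before the start in Gja4 and 17 bases before it in Gja5, against a share of 32.7% of windows. Gja1 also held an E-box (CANNTG, in 66.2% of windows) at 23 bases and a GATA motif (AGATAA, 9.99%) at 135 bases, and Gja5 held an NK homeobox motif (AAGTG, 40.7%) at 62 bases. The T-box motif GGTGTG (16.3% of windows) and the TATA box TATAAA (12.4%) were in none of the 3 windows, all motifs being read on both strands. These are matches of letters in a short window and were set against no binding data. The genes lie on chromosome 10 (Gja1, 56377300 to 56390419), chromosome 4 (Gja4, 127311420 to 127314039), chromosome 3 (Gja5, 97032402 to 97053634) and chromosome 11 (Gjc1, 102799477 to 102819686) of the same assembly.

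In the E11.5 heart Gja1 and Gja5 were highest in trabecular-like muscle, Gja4 in endothelial-like cells and Gjc1 in outflow-like cells. The single-cell libraries held 2563 barcodes labelled +/+ and 3469 labelled F/F, with 38302758 and 51432290 UMIs and a median of 13369 and 13403 per barcode. After filters, 2503 and 3368 cells formed 18 clusters, which were named from marker genes and made with the 4 connexins left out of the genes used for clustering. Levels below are counts per 1000000 UMIs of the cluster (CPM) over both libraries with exact Poisson 95% intervals, which cover counting error only. Where no UMI was found, the level of 3 UMIs is given as the limit in place of the interval. They are compared between clusters for 1 gene. Genes are set against each other only where their order in the bulk libraries is described. No test is given since each genotype had 1 library.

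Gja1, the main connexin of working myocardium, was highest in cluster 4, called trabecular cardiomyocyte-like from Nppa, Cited1 and Nppb among its leading genes. This cluster of 547 cells held 2106 of the 3602 Gja1 UMIs (58.5%), at 248 CPM (237 to 259). Cluster 2, called ventricular cardiomyocyte-like from Myl2 and Myl3, held 46.3 CPM (42.0 to 50.9), and cluster 13, called atrial cardiomyocyte-like with Nr2f1, Vsnl1 and the sinus node factor gene Shox2 among its leading genes, held 19.4 CPM (12.7 to 28.5). Within heart muscle Gja1 was thus far from even. Cluster 9, called outflow- and second-heart-field-like from Bmp4, Rspo3, Sema3c and Isl1, also expressed cardiomyocyte markers, and there Gja1 was at 4.75 CPM (20 UMIs). Outside muscle, Gja1 reached 61.6 CPM in endothelial- and endocardial-like cluster 8, 42.4 CPM in epicardial-like cluster 7, and 32.1 and 22.7 CPM in mesenchymal-like clusters 6 and 3. Erythroid-like cells, which should lack it, showed 1.03 CPM.

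Gja5, the connexin of trabecular and atrial muscle and of arteries, was highest in the same trabecular-like cluster, which held 522 of its 686 UMIs at 61.4 CPM (56.3 to 66.9). The atrial-like cluster followed with 32.1 CPM (23.3 to 43.3) and the ventricular-like cluster with 8.05 CPM. The trabecular- and atrial-like levels were closer in the library labelled +/+ (57.3 and 49.2 CPM, the latter from 20 UMIs). In that labelled F/F they were 65.3 and 24.7 CPM. Gja5 thus took second place in the atrial-like cluster, where Gja1 was lower than in the trabecular- and ventricular-like clusters. The endothelial-like clusters 11 and 8 held 3.66 and 2.54 CPM, from 8 and 9 UMIs, and erythroid-like cells 0.281 CPM. With each cell thinned to 5000 UMIs, 520 trabecular-like cells remained. Of those with a Gja1 UMI 25.8% had a Gja5 UMI, and of those without 20.8%. At a coarser clustering (Leiden resolution 0.5), where trabecular- and ventricular-like cells formed 1 cluster, Gja1 was at 143 CPM and Gja5 at 33.7.

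Gja4, known as an endothelial connexin, had 591 of its 657 UMIs in the endothelial- and endocardial-like cells, mostly in 1 of their 2 clusters. Cluster 11, 135 cells with Emcn, Npr3 and Plvap among its leading genes, held 486 of them at 222 CPM (203 to 243). Cluster 8, 325 cells led by Stmn2, Klf2 and Wnt4, held 29.7 CPM (24.3 to 35.9). Megakaryocyte-like cells followed with 4.57 CPM (11 UMIs). The cardiomyocyte-like clusters together held 7 Gja4 UMIs (0.368 CPM), near the 0.281 CPM of erythroid-like cells, and cluster 9 held none in 300 cells, for which the level of 3 UMIs is 0.713 CPM.

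Gjc1, the connexin of the earliest heart tube and the nodes, was the most evenly spread. Its highest level was 103 CPM (93.8 to 113) in outflow-like cluster 9, where Gja1 was low and Gja4 was not found. It then lay at 75.1 CPM in mesenchymal-like cluster 6, 67.2 CPM in the unnamed cluster 12 (led by Rgs5), 59.9 CPM in endothelial-like cluster 8, 59.1 CPM in the atrial-like cluster, 58.5 CPM in mesenchymal-like cluster 3 and 53.7 CPM in the ventricular-like cluster. Neighbours from cluster 6 down to the ventricular-like cluster had overlapping intervals. The trabecular-like cluster, highest for Gja1 and Gja5, was the lowest of the muscle clusters for Gjc1, at 36.1 CPM (32.2 to 40.4). Erythroid-like cells held 1.22 CPM, and the immune-like cluster held no Gjc1 UMI in 50 cells, for which the level of 3 UMIs is 2.77 CPM.

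**Figure D1:**
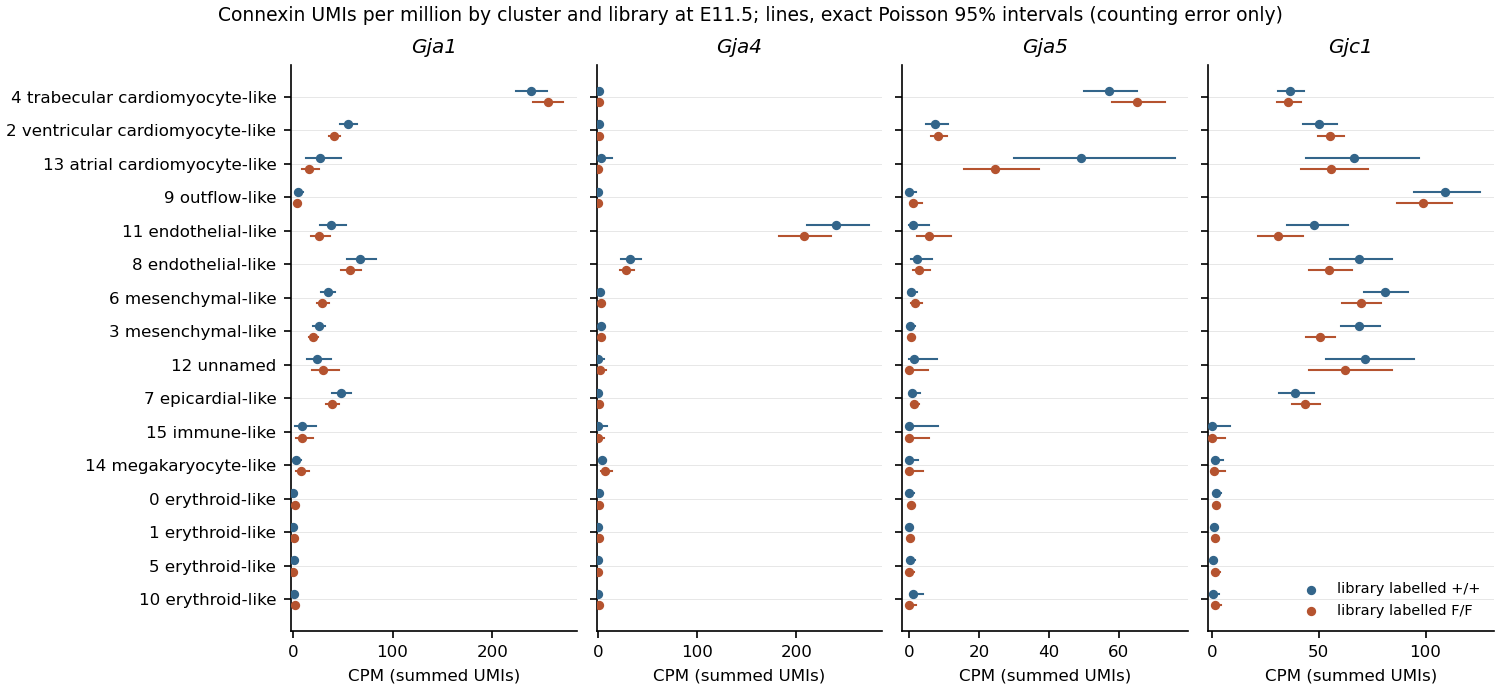
Level of each connexin (x axis, CPM) in the 16 clusters with at least 50 cells (y axis), in the library labelled +/+ (blue) and that labelled F/F (red); lines are exact Poisson 95% intervals, which cover counting error only. Gja1 and Gja5 peak in trabecular-like cluster 4, Gja4 in endothelial-like cluster 11 and Gjc1 in outflow-like cluster 9, in both libraries. For Gja5 in +/+ the atrial-like cluster 13 comes close (49.2 CPM from 20 UMIs, against 57.3).

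The share of cells with a UMI gave the same leading clusters when every cell was thinned to 5000 UMIs. Gja1 was found in 61.2% of trabecular-like cells (84.1% before thinning) and 0.536% of erythroid-like cells. Gja4 was found in 56.8% of cluster 11 (80.7% before thinning), 7.80% of cluster 8 and 0.244% of erythroid-like cells. Gja5 was found in 23.8% of trabecular-like cells (46.3% before thinning), 10.6% of atrial-like, 3.64% of ventricular-like and 0.0488% of erythroid-like cells. Gjc1 was found in 42.6% of outflow-like cells (71.3% before thinning). In the erythroid-like clusters 0, 1, 5 and 10 it was found in 3 of 703, 3 of 699, 3 of 480 and 0 of 169 thinned cells. The median depth before thinning was 15684 UMIs in the trabecular-like cluster, 16177 in cluster 11, 14086 in cluster 9 and 11353 in erythroid-like cells.

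Over the 16 clusters with at least 50 cells, the genes whose log2(CPM + 1) was most like each connexin were found by Pearson's r, as a description. For Gja4 they were Emcn (0.96), Plxnd1 (0.94) and Cd93 (0.94), all known from endothelium. For Gja5 they were the natriuretic peptide gene Nppa (0.94), Abcc9 (0.89) and Ddhd1 (0.87), and for Gja1 Tusc3 (0.92), Anln (0.91) and Mest (0.91). Gjc1 was most like Bcar1, Zfp532 and Mboat2 (each 0.99), a pattern of presence outside the blood cells. The clusters share 2 libraries and differ in depth.

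Between the single-cell libraries the members differed little in most clusters. Over all cells the log2 ratio of the library labelled F/F to that labelled +/+ was -0.14 for Gja1 (44.0 CPM in +/+, 40.0 in F/F, interval -0.23 to -0.04), -0.19 for Gja4, 0.05 for Gja5 and -0.08 for Gjc1. Of 22 ratios of a connexin in a cluster with at least 20 UMIs in each library, 17 lay below 1 and 5 above. No share of all genes below 1 is given beside this count, so nothing is read from it. A ratio of at least 1.5-fold was found for 2 of the 22, where all genes in the same 10 clusters gave 7.24% of 66999 ratios, with 14.9% in the atrial-like cluster and 7.61% in cluster 11. They were Gja5 in the atrial-like cluster (49.2 CPM in +/+, 24.7 in F/F, log2 ratio -0.996, interval -1.93 to -0.06, from 20 and 23 UMIs) and Gjc1 in endothelial-like cluster 11 (-0.64, interval -1.30 to 0.01). In the trabecular-like cluster Gja1 was at 239 CPM in +/+ and 256 in F/F (log2 ratio 0.10, interval -0.03 to 0.22) and Gja5 at 57.3 and 65.3 (0.19, interval -0.07 to 0.44). The intervals of 3 of the 22 ratios left out 0, with no share of all genes to set beside them. They included that of Gja5 in the atrial-like cluster. Gja1 in the ventricular-like cluster had another (55.7 CPM in +/+, 41.5 in F/F, log2 ratio -0.42, interval -0.71 to -0.13). Gjc1 in mesenchymal-like cluster 3 had the last (69.0 and 50.4 CPM, -0.45, interval -0.73 to -0.18).

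**Figure D2:**
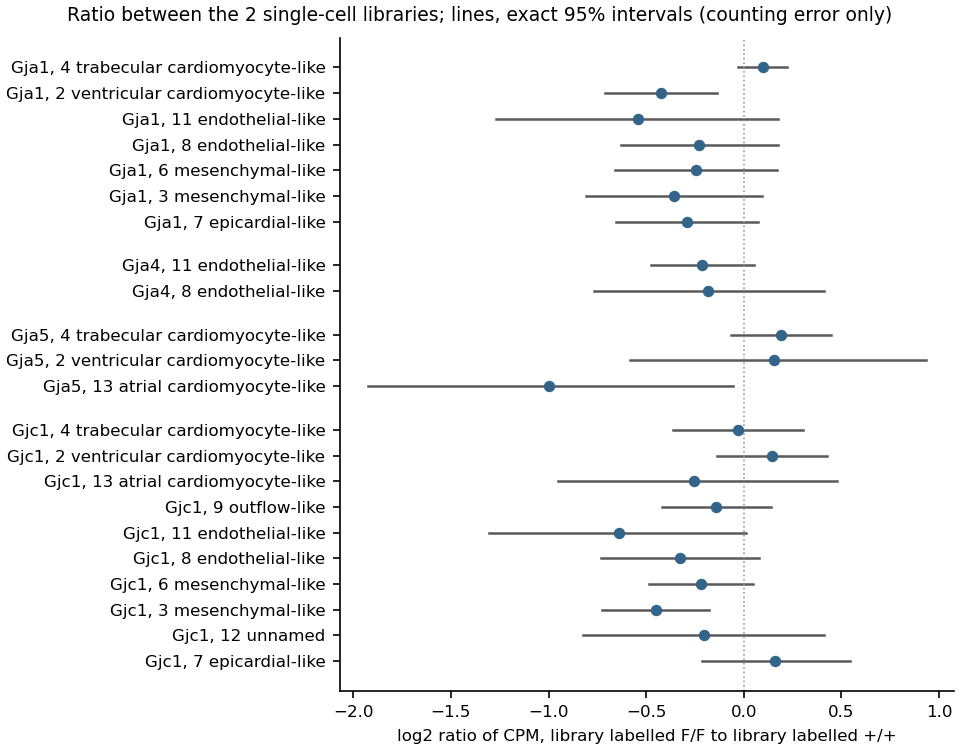
The log2 ratio of CPM in the library labelled F/F to that labelled +/+ (x axis) for the 22 connexin and cluster pairs with at least 20 UMIs in each library (y axis), with exact 95% intervals for counting error only and no replicate behind them. Most points lie between -0.5 and 0.5, and 3 intervals leave out 0, with no share of all genes to set beside them.

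Values of whole classes differed from those of their clusters. In the cardiomyocyte-like class Gja1 was at 152.9 CPM in the library labelled +/+ and 122.4 in that labelled F/F, a log2 ratio of -0.32 (interval -0.43 to -0.21). The trabecular-like cluster made up 51.6% of 473 such cells in the first (exact interval 47.0% to 56.2%) and 39.0% of 777 in the second (35.5% to 42.5%). With the F/F clusters weighted to the +/+ mix of UMIs (not of cells), Gja1 was at 155.5 CPM in F/F, a log2 ratio of 0.02. Gja5 went from -0.21 to 0.13. In the endothelial-like class Gja4 went from -0.39 to -0.21 in the same way. There the cell mix hardly differed, with cluster 11 at 29.9% of cells in +/+ and 28.9% in F/F. In the mesenchymal-like class the ratio of Gjc1 was -0.35 and -0.32 at the +/+ mix. Genotype and the single pool of hearts behind each library cannot be told apart.

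In the bulk libraries F/F did not differ detectably from F/+ in any of the 4 connexins. At E11.5 Gja1 was at 44.67, 50.45 and 28.95 FPKM in the F/+ hearts and 44.38, 29.80 and 58.58 in the F/F hearts. Gja5 was at 50.92, 66.38 and 42.50 FPKM in F/+ and 59.16, 45.59 and 94.48 in F/F. Gja4 was at 18.42, 21.22 and 22.69 FPKM in F/+ and 15.78, 24.07 and 20.02 in F/F. The groups overlapped for each of these genes, and the highest Gja1 and Gja5 came from the same F/F library. Gjc1 was at 24.89, 31.13 and 8.57 FPKM in F/+ and 27.42, 22.21 and 17.44 in F/F, again overlapping. The F/+ replicate 3 library, which had the largest haemoglobin share (29.7%), had the lowest Gja1, Gja5 and Gjc1 and the highest Gja4 of its group. In an alternative, haemoglobin and mitochondrial genes were left out and each library was scaled to a common sum. The differences (log2, F/F minus F/+) were then -0.28 for Gja1, -0.42 for Gja4, -0.09 for Gja5 and -0.15 for Gjc1. They lay below 0 like the median of all genes (-0.31), and none was called. The main fit kept the sums as deposited, which were 376930 to 457462 FPKM in F/+ and 442355 to 586795 in F/F. The parts of the left-out genes and of the scaling were not tested apart. Summed cardiomyocyte markers were at 11590 to 13780 FPKM in F/+ and 14000 to 15990 in F/F, and summed endothelial markers at 346 to 361 and 402 to 412, both without overlap; their part in the connexin values was not tested.

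As deposited, the log2 differences, F/F minus F/+, on the log2(FPKM + 1) scale were 0.08 for Gja1 (95% interval -0.52 to 0.69), -0.07 for Gja4 (-0.53 to 0.39), 0.27 for Gja5 (-0.31 to 0.86) and 0.20 for Gjc1 (-0.67 to 1.08). None of the 4 passed limma's test at an adjusted p of 0.05 (adjusted p 0.999 for each), where 1 of all 11491 genes did (0.0087%), and 502 (4.37%) had an unadjusted p under 0.05. None of the 4 had an unadjusted p under 0.05 in any comparison of genotypes. Nor did any have groups without overlap at E11.5, as 9.23% of all genes did. Two-sided exact permutation tests gave p of 0.8, 0.8, 0.6 and 0.9 in the same order, with 0.1 the smallest that 3 against 3 allow. In bulk tissue fewer cells of a type and less RNA per cell cannot be told apart. In simulated data for this comparison, over 11491 genes, a log2 change of 1 was recovered in 30% of changed genes and a change of 2 in 73%.

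At E16.5 the 3 F/+ ventricles lay closer together in each connexin than the 3 F/+ hearts did at E11.5. Gja1 was at 51.56, 49.33 and 45.08 FPKM in F/+ and 45.70, 36.77 and 63.53 in F/F, so that the F/F values lay on both sides of the F/+ values. Gja5 was at 33.00, 38.66 and 36.71 FPKM in F/+ and 34.82, 31.54 and 44.60 in F/F. Gja4, the endothelial connexin, was at 27.11, 25.39 and 26.03 FPKM in F/+ and 18.58, 26.31 and 26.09 in F/F. Thus 1 F/F library was lower than all others. Gjc1 was at 20.89, 12.65 and 13.91 FPKM in F/+ and 17.20, 15.31 and 23.26 in F/F. The log2 differences were -0.03 for Gja1 (95% interval -0.45 to 0.39), -0.16 for Gja4 (-0.48 to 0.16), 0.02 for Gja5 (-0.29 to 0.33) and 0.23 for Gjc1 (-0.26 to 0.72), and none of the 4 passed limma's test, as 1 of 10699 genes did (0.00935%; 2.63% at an unadjusted p under 0.05). The groups overlapped for all 4, where 6.78% of genes had no overlap. Y-linked genes reached 1 FPKM in 1 of 3 F/+ and 3 of 3 F/F ventricles, and with a Y-linked covariate, which sets that 1 F/+ ventricle (replicate 2) against the 3 F/F, Gjc1 was at 0.50, Gja5 at -0.077 and none of the 4 was called. Leaving out 1 library moved Gjc1 to between 0.066 and 0.44. Exact permutation p-values (two-sided) were 1, 0.6, 1 and 0.5, with 0.1 the smallest possible. The effect of F did not differ detectably between the stages either: the difference of effects, E16.5 minus E11.5, was -0.11 for Gja1, -0.09 for Gja4, -0.25 for Gja5 and 0.03 for Gjc1 on the log2 scale. Their two-sided exact permutation p-values were 0.785, 0.725, 0.555 and 0.97, and limma called 1 of 11423 genes (0.00875%), which was none of the 4.

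**Figure D3:**
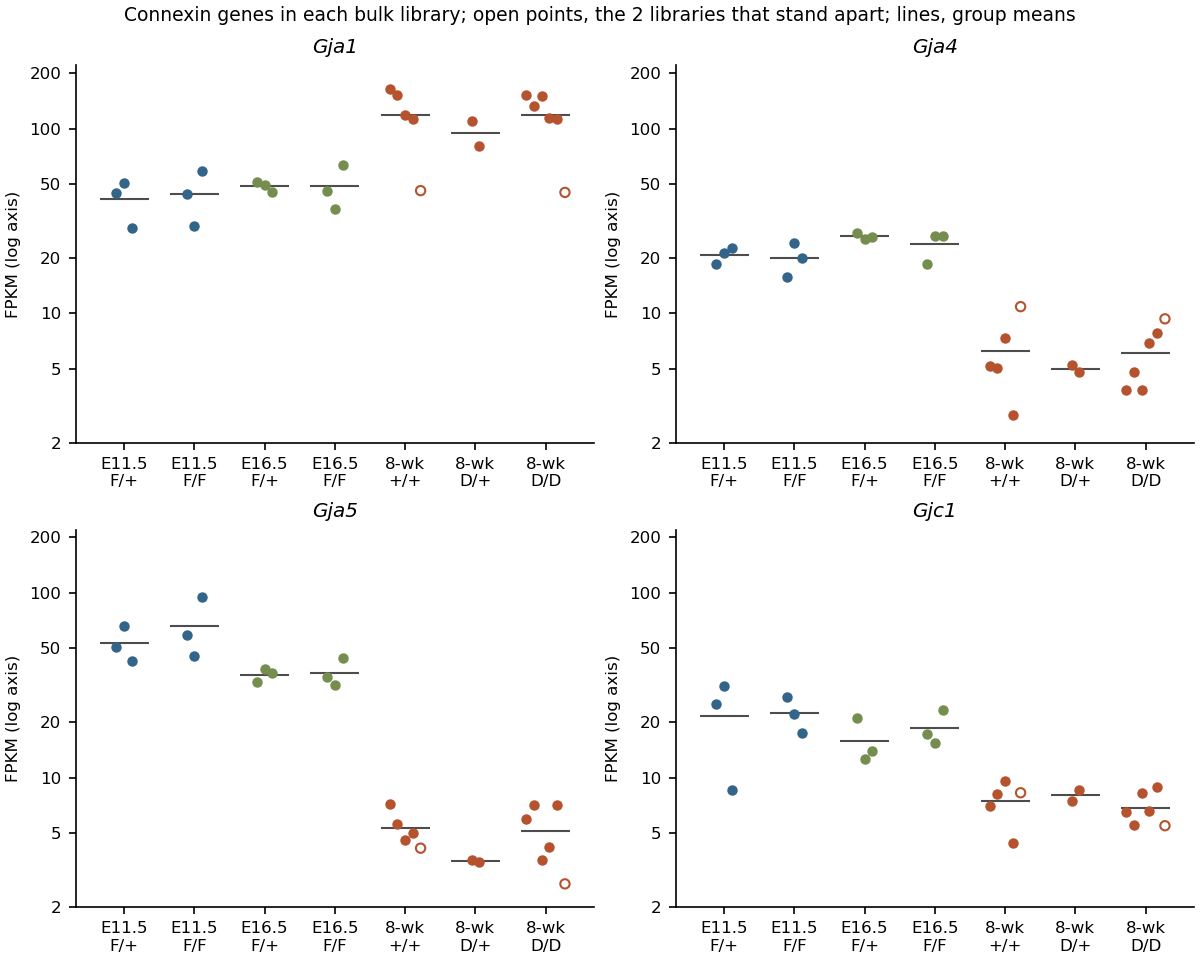
FPKM of each connexin (y axis, log scale) in every bulk library by stage and genotype (x axis); points are libraries, lines group means, and open points the 2 libraries that stand apart at 8 weeks. F/F overlaps F/+ at both embryonic stages and D/D overlaps its controls at 8 weeks, while Gja4 and Gja5 lie lower, Gjc1 mostly lower and Gja1 mostly higher in 8-week cardiomyocytes than in the embryonic samples.

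In 8-week cardiomyocytes D/D did not differ detectably from its controls in any of the 4 connexins. Gja1 was at 163.13, 151.64, 117.82 and 112.89 FPKM in +/+ replicates 1 to 4, 46.13 in the library labelled +/+ replicate 5, and 109.57 and 80.17 in D/+. In D/D it ran from 45.12 to 152.72 FPKM with a median of 123.1. The lowest value of each range was 1 of the 2 libraries that stood apart, and the other 11 lay between 80.17 and 163.13. Gja4 was at 5.20, 5.08, 7.40, 2.82 and 10.87 FPKM in +/+, at 5.24 and 4.80 in D/+, and from 3.85 to 9.34 (median 5.85) in D/D. The same 2 libraries that were lowest for Gja1 were highest for Gja4. Gja5 was at 7.22, 5.59, 4.57, 5.01 and 4.15 FPKM in +/+, 3.57 and 3.49 in D/+, and 2.66 to 7.12 (median 5.09) in D/D. Gjc1 was at 7.06, 8.18, 9.61, 4.42 and 8.28 FPKM in +/+, 7.44 and 8.59 in D/+, and 5.49 to 8.87 (median 6.55) in D/D. D/D overlapped its controls for every member. Both D/+ values of Gja5 lay below all 5 +/+ values, and those of the other 3 members overlapped +/+; 5.32% of all genes had no overlap between these 2 groups.

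The log2 difference of D/D against both controls was 0.07 for Gja1 (95% interval -0.59 to 0.74), 0.05 for Gja4 (-0.48 to 0.58), 0.04 for Gja5 (-0.40 to 0.48) and -0.13 for Gjc1 (-0.47 to 0.22). limma called none of them and 0 of all 10249 genes (0%), of which 175 (1.71%) had an unadjusted p under 0.05 and 3 (0.0293%) had groups that did not overlap. Exact permutation p-values (two-sided) were 0.815, 0.853, 0.837 and 0.437, with 0.0005828 the smallest possible. Against +/+ alone the differences were 0.01, 0.00, -0.09 and -0.10, with 0 of 10249 genes called (0%; 104, or 1.01%, at an unadjusted p under 0.05) and 0.0683% without overlap. Without the 2 libraries that stood apart the differences from both controls were 0.13, 0.07, 0.16 and -0.06, with exact permutation p of 0.485, 0.753, 0.470 and 0.773. Within set A, 2 D/D against 3 control libraries, D/D lay below all controls for Gja4 (log2 difference -0.22) and Gjc1 (-0.28), each at an exact permutation p of 0.1, the smallest possible there, and 28.4% of all genes had no overlap in that set. Gja1 (0.03) and Gja5 (0.26) overlapped. Within set B, 4 against 4, the differences were 0.20, 0.16, -0.03 and -0.05.

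**Figure D4:**
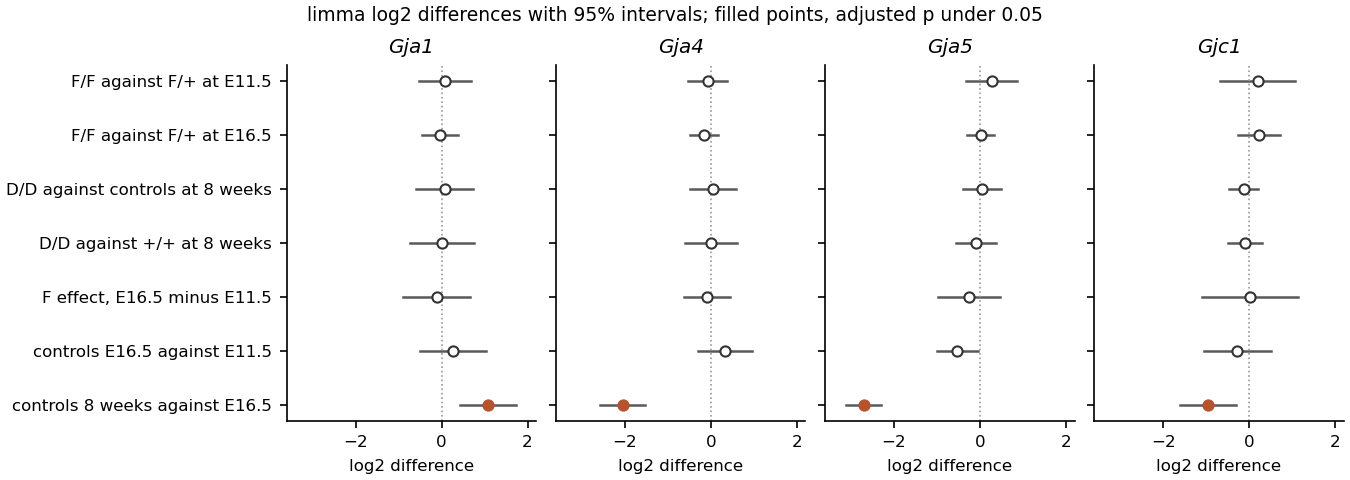
Log2 difference of each connexin in 7 comparisons of bulk libraries (x axis, log2(FPKM + 1) scale), with limma's 95% intervals; filled points had an adjusted p under 0.05. All genotype intervals span 0, and the filled points are the 4 connexins in 8-week controls against E16.5 controls.

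Gja4 rose and fell with endothelial markers across the 8-week libraries. Summed FPKM of 11 endothelial and endocardial markers, none of them a connexin, ran from 135.8 to 632.5 (median 302.1) over the 13 libraries, against 296 to 347 at E16.5. Over the 13 libraries Gja4 rose with this sum at r = 0.88 (permutation p 8e-05, adjusted 0.00064) and rho = 0.91 (permutation p 9e-05, adjusted 0.00072), with p-values adjusted over 8 relations that were chosen after the values were seen. Without the 2 libraries farthest from the median r was 0.88, without the 2 that stood apart 0.90, and within set B 0.88 (8 libraries); set A, with 5, was too small. Gjc1 and Gja1 gave r of 0.52 and -0.49 with the same sum, which did not pass (adjusted permutation p 0.181 and 0.182). These moved more than that of Gja4 when libraries were left out. Without the 2 farthest libraries r was 0.02 for Gjc1 and -0.80 for Gja1. Without the 2 that stood apart it was 0.65 and -0.32, and within set B 0.53 and -0.44. Gja5 had r = 0.59 with the summed atrial markers (permutation p 0.0335, adjusted 0.134) and rho = 0.43. That relation rested on +/+ replicate 1 and D/D replicate 2, since r was 0.13 without them. These 2 libraries held 322.7 and 397.6 FPKM of the atrial light chain gene Myl7, where the others held 2.72 to 112.2. Their Gja5 values of 7.22 and 7.12 FPKM were the highest at 8 weeks, 7.12 being shared with D/D replicate 5.

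**Figure D5:**
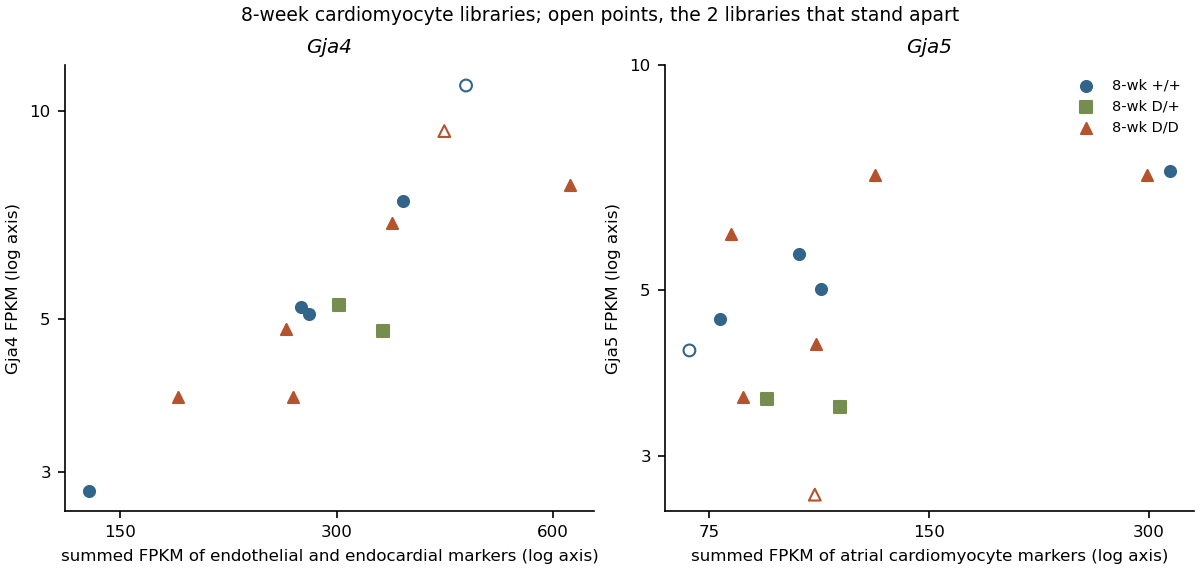
FPKM of Gja4 against the summed FPKM of endothelial and endocardial markers, and of Gja5 against that of atrial cardiomyocyte markers, in the 13 libraries of 8-week cardiomyocytes. Gja4 climbs with its markers over the whole range (r = 0.88), while the relation of Gja5 rests on 2 libraries with high atrial markers.

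In FPKM the order of the connexins differed between the stages. In E11.5 hearts Gja5 was the highest in FPKM, above Gja1 in 6 of 6 libraries, with a Gja1 to Gja5 ratio of 0.620 to 0.877. The UMI counts of the same stage ran the other way, with 3602 UMIs of Gja1 and 686 of Gja5 over all cells (41.7 and 7.94 CPM), so that the order at E11.5 differed between the assays; the cause was not tested. The orders that follow are likewise of FPKM. In E16.5 ventricles Gja1 was above Gja5 in 6 of 6 (ratio 1.17 to 1.56), Gja5 above Gja4 and Gja4 above Gjc1 in 6 of 6. In 8-week cardiomyocytes Gja1 was above every other member in 13 of 13 libraries, with a ratio to Gja5 of 11.1 to 41.4, and it took 66.4% to 90.5% of the summed FPKM of the 4. The neighbours Gjc1 and Gja4 kept 1 order in 3 of 6 E11.5 libraries and in 10 of 13 at 8 weeks, and Gja4 and Gja5 in 8 of 13. For neighbours within a genotype group, none of 21 exact permutation tests on paired log2 values passed (lowest adjusted p 0.404), as groups of 3 cannot go below 0.25 and groups of 6 not below 0.03125. The summed FPKM of the 4 had medians of 142.8 at E11.5, 123.9 at E16.5 and 136.7 at 8 weeks.

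Among controls Gja1 rose and Gja4, Gja5 and Gjc1 fell between E16.5 ventricles and 8-week cardiomyocytes. Gja1 went from 48.7 ± 3.3 FPKM (SD, n = 3) to 111.6 ± 40.0 (SD, n = 7), a log2 change of 1.09 (SE 0.30, limma adjusted p 0.00522); the groups overlapped through the library labelled +/+ replicate 5. Gja5 went from 36.1 ± 2.9 to 4.80 ± 1.31 FPKM, a log2 change of -2.70 (SE 0.19, limma adjusted p 1.09e-08). Gja4 went from 26.2 ± 0.87 to 5.92 ± 2.56 FPKM, a log2 change of -2.05 (SE 0.25, limma adjusted p 3.58e-06). Gjc1 went from 15.8 ± 4.4 to 7.65 ± 1.64 FPKM, a log2 change of -0.95 (SE 0.31, limma adjusted p 0.0123). The last 3 had no overlap, with a two-sided exact permutation p of 0.00833, the smallest possible, and Gja1 gave 0.0333. All 4 were called, where 71.2% of 11446 genes were (25.3% higher and 45.9% lower), and groups did not overlap for 63.8% of genes.

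Marker sums differed between the same samples. Over all genotypes, summed cardiomyocyte markers were 16670 to 20410 FPKM at E16.5 and 29690 to 42450 at 8 weeks, while fibroblast markers went from 949 to 1095 down to 24.2 to 138.5. Summed endothelial markers overlapped between the stages, but 7 arterial endothelial markers were at 118 to 138 FPKM at E16.5 and 21.3 to 99.6 at 8 weeks. Atrial markers were at 43.2 to 49.95 FPKM at E16.5, with Sln and Vsnl1 at 0 in all 3 F/+ ventricles, and at 70.5 to 320 at 8 weeks. Gapdh was listed at 0.12 to 5.09 FPKM in the embryonic libraries and 980 to 2529 at 8 weeks. Ppia was listed at 0 in all 12 embryonic libraries. At 8 weeks Ppia was at 1.2 FPKM in +/+ replicate 5 and 0.63 in D/D replicate 6, against 18.15 to 52.5 in the other 11. These 2 libraries stood apart, and their Gja1 (46.13 and 45.12 FPKM) was near that of E16.5 controls. Their Gapdh, at 2529 and 1873 FPKM, was not low. The part of this in the connexin changes was not tested. The call for Gjc1 was lost with upper-quartile scaling (-0.63, limma adjusted p 0.0553), median-ratio scaling (-0.53, 0.103) and without E16.5 F/+ replicate 1 (-0.75, 0.0794). The call for Gja1 was lost with libraries scaled to a common sum without haemoglobin and mitochondrial genes (0.73, limma adjusted p 0.0538). The median of all genes was -0.34, and those scalings moved it to -0.04 (upper-quartile), 0.05 (median-ratio) and -0.64 (without haemoglobin and mitochondrial genes).

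Between E11.5 hearts and E16.5 ventricles none of the 4 passed, where 46.9% of 11446 genes did (17.4% higher and 29.5% lower). Gja5 came closest, from 53.3 ± 12.1 (SD, n = 3) to 36.1 ± 2.9 FPKM (SD, n = 3) with no overlap, a log2 difference of -0.53 (SE 0.22, limma adjusted p 0.0661). It was called when the high-haemoglobin E11.5 F/+ replicate 3 was left out (-0.67, limma adjusted p 0.0346), and also without 8-week +/+ replicate 1, which enters through the shared spread (-0.53, limma adjusted p 0.0394). Gja4 went from 20.8 ± 2.2 to 26.2 ± 0.87 FPKM, also with no overlap, a difference of 0.32 (limma adjusted p 0.387). Each gave an exact permutation p of 0.1, the smallest possible, and 58.9% of all genes had groups that did not overlap. Gja1 differed by 0.26 (limma adjusted p 0.577) and Gjc1 by -0.28 (0.558). Without the heart with the highest haemoglobin Gjc1 was called at -0.81 (limma adjusted p 0.0259), and without E11.5 F/+ replicate 2 its difference was 0.06. Atrial markers summed to 115 to 161 FPKM in E11.5 hearts and 43.2 to 49.95 in E16.5 ventricles, and trabecular markers to 965 to 2190 and 420 to 614; their part in the Gja5 values was not tested.

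Partners of the connexins moved with stage, as did many genes, and not detectably with genotype. Of all genes, 46.9% were called from E11.5 to E16.5 and 71.2% from E16.5 to 8 weeks. No gene of 3 lists, other connexins and pannexins, intercalated disc and gap junction partners, and transcription factors reported to act on connexin genes, was called by limma between genotypes at any stage. At an unadjusted p under 0.05 there were 4 of 27 transcription factor genes for F/F against F/+ at E11.5 (4.37% of all genes), 4 of 26 for the difference between the stages (4.32% of all genes) and 1 of 23 for D/D against both controls (1.71% of all genes), and none of the other 2 lists. Of 22 disc and junction genes, 12 rose and 2 fell from E11.5 to E16.5 (median log2 change 0.58, all genes -0.15), where 17.4% of all genes rose and 29.5% fell. From E16.5 to 8 weeks 11 rose and 4 fell (median 0.42, all genes -0.34), where 25.3% of all genes rose and 45.9% fell. Nrap (3.74), Ldb3 (2.14) and Xirp1 (1.36), known from Z-discs and intercalated discs, rose most in the first step, and Ctnnb1 (-1.21) and Tjp1 (-0.73), whose product ZO-1 binds Cx43, fell. In the second step Xirp2 (4.72) and the catenin gene Ctnna3 (1.86) were among those that rose, and the junction receptor gene Cxadr (-1.03) and Vcl (-0.98) among those that fell.

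Of the other connexins, Gja3 (Cx46), known mainly from the lens, moved in both steps. It was at 0 to 1.88 FPKM at E11.5, 11.8 to 14.7 at E16.5 and 3.31 to 10.7 at 8 weeks, with log2 changes of 3.29 (limma adjusted p 5.88e-08) and -0.68 (limma adjusted p 0.00496) in controls. The hemichannel gene Panx1 fell by 1.72 in the first step. Of 26 transcription factors tested, 6 rose and 10 fell in the first step (median -0.21; 17.4% of all genes rose and 29.5% fell) and 3 rose and 12 fell in the second (median -0.51; 25.3% and 45.9% of all genes). Hopx (2.13), Hey2 (1.88) and Irx4 (1.27), known from ventricular and trabecular muscle, rose first, and the sinus node factor Shox2 (-2.54), Msx2 (-2.38) and Id2 (-2.18), a factor of conduction system development, fell. At 8 weeks the flow-responsive endothelial factors Klf4 (1.80) and Klf2 (1.43) and the Purkinje factor Irx3 (0.87) were higher, and Hey2 (-4.43), Hand1 (-3.29) and Id2 (-2.77) lower. Over all 25 bulk libraries the genes most like Gja1 by Pearson's r of log2 values were the cadherin gene Cdh2 (0.95), Entpd5 (0.95) and Abcc9 (0.94), and those most like Gja4 were Nid1 (0.98), Emilin1 (0.98) and Gpr182 (0.97). For Gja5 they were Mlec, Cnn1 and Tmem108 (each 0.98), and for Gjc1 they included Zfp532 and Mum1 (each 0.93). The libraries share stages and tissues, and these values are descriptions.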

How the data were processed

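The bulk table, as deposited by the authors, holds values per gene that were taken as FPKM. No header names the unit. It was read off the values, which have decimals and whose ratio to the UMI counts rose only weakly with transcript length (slope 0.178 on log10 scales, 10831 genes). Per the submitters' processing notes, CASAVA, TopHat and TopHat2 2.0.11 with mm9 were used for bulk libraries, and Cell Ranger with mm10 for single cells. For single cells the authors deposited 1 table of UMI counts, whole numbers, whose barcodes end in the name of their library. Bulk depth is unknown.

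Identical lines of 270 repeated symbols were merged, none of them a member. Values were taken as log2(FPKM + 1), which understates the change of low genes, and genes averaging 1 FPKM or more across the libraries fitted entered limma 3.58.1 (intensity trend, R 4.3.3) at a Benjamini-Hochberg adjusted p of 0.05 over all genes tested. Each embryonic stage had its own fit, and the stage comparisons used control libraries only. Single genes also had two-sided exact permutation tests over libraries. limma's use here was tested on simulated data, where a log2 change of 1 was recovered in 30% of changed genes at E11.5 (11491 genes), 79% at E16.5 (10699 genes) and 75% at 8 weeks (10249 genes). Single cells were processed with Scanpy 1.11.5 in Python 3.11.15: at least 500 genes per barcode, the highest scrublet scores removed at 0.8% per 1000 barcodes (52 and 96 barcodes; the automatic threshold marked 2 and 3), 2000 variable genes less the members, 30 components, 15 neighbours and Leiden resolution 1.0. A class name needed at least 3 leading markers.

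The members, lists and marker genes were chosen with earlier results of these data known. Named genes were the members, list genes called between genotypes, the 3 called list genes with the largest rise and fall per stage comparison with a mean of at least 5 FPKM in a group, the 3 genes most like each member, and cell type markers. A few genes that this rule names are not reported here. Alternatives were a pseudocount of 0.1, no low-value filter, the replicate number as a block, and upper-quartile and median-ratio scaling. Another left out haemoglobin and mitochondrial genes and scaled libraries to a common sum. Further ones were all libraries in 1 fit, a Y-linked covariate, a term for the 2 sets, +/+ only at 8 weeks and leaving out each library. Single-cell alternatives were a minimum of 1000 genes, keeping doublets, Leiden resolutions 0.5 and 2.0, and keeping the members for clustering. Motifs and promoters came from RefSeq tables of GRCm38.p6.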

Additional observations from a re-analysis of the deposited data

Results flagged for a closer look

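Gja1 in 8-week D/D replicate 6, at 45.12 FPKM, lay far below the other 5 D/D libraries (112.95 to 152.72 FPKM): its gap to the nearest of them was 0.630 of the range of the group, just above the 95% limit of Dixon's test for 6 samples. The library labelled +/+ replicate 5, at 46.13 FPKM, gave 0.571, under the limit for 5 samples. Of the 8 groups tested (4 connexins in +/+ and in D/D), 1 was past its limit, and chance puts about 1 in 20 there.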

How the results depend on the processing

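Over the 4 connexins and 7 bulk comparisons, 474 of 540 alternative values kept their direction and their side of the threshold, 59 turned direction, 4 lost a call and 3 gained one. No connexin was called between genotypes in any alternative, and most values that turned were close to 0 with groups that overlapped. The cause of a turn was not tested except where named. Leaving out haemoglobin and mitochondrial genes and scaling libraries to a common sum moved F/F against F/+ at E11.5. The values became -0.28 (Gja1), -0.42 (Gja4), -0.092 (Gja5) and -0.15 (Gjc1), with 4 genes called. This setting moved the difference between the stages to 0.24 (Gja1), 0.27 (Gja4), 0.11 (Gja5) and 0.38 (Gjc1), with 2 genes called. It moved the median of all genes to -0.31 and 0.32. It moved Gja1 at 8 weeks against E16.5 to 0.73, and there Gjc1 was at -0.63 with upper-quartile and -0.53 with median-ratio scaling. A Y-linked covariate gave Gjc1 0.47 at E11.5 and 0.50 at E16.5, and Gja5 -0.077 at E16.5, with 3 genes called there; it gave Gjc1 0.25 for the difference between the stages. For E16.5 against E11.5, upper-quartile scaling gave 0.49 (Gja1), 0.54 (Gja4), -0.30 (Gja5) and -0.059 (Gjc1). For D/D against +/+, Gja4 was at -0.0045 with upper-quartile scaling and -0.019 with a term for the 2 sets, and Gja1 at -0.038 without the 2 libraries that stood apart, an alternative chosen after seeing the data. Genes called at E11.5 numbered 24 with all libraries in 1 fit, at E16.5 2 with a pseudocount of 0.1, and for the difference between stages 2 with that pseudocount, 3 with no low-value filter and 6 with all libraries in 1 fit.

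Replicate numbers did not pair the samples: same-numbered libraries had residual correlations of -0.04, -0.02 and 0.08 at E11.5, -0.08, 0.04 and -0.43 at E16.5, and -0.11 to 0.53 between +/+ and D/D. With the replicate block Gja1 was at 0.39, Gja4 at -0.12 and Gja5 at 0.21 against both controls, and at 0.27, -0.12 and 0.048 against +/+, and 2 genes were called at E11.5; no connexin call changed.

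Leaving out 1 library at a time gave, for F/F against F/+ at E11.5, -0.15 to 0.33 (Gja1), -0.21 to 0.081 (Gja4), -0.012 to 0.51 (Gja5) and -0.33 to 0.55 (Gjc1), with 1 to 2 genes called. At E16.5 it gave -0.24 to 0.15 (Gja1), -0.24 to 0.0017 (Gja4), -0.12 to 0.13 (Gja5) and 0.066 to 0.44 (Gjc1), with 0 to 2 genes called. D/D against controls ran from -0.12 to 0.33 (Gja1), -0.078 to 0.19 (Gja4), -0.051 to 0.18 (Gja5) and -0.24 to -0.075 (Gjc1), and against +/+ from -0.29 to 0.27, -0.21 to 0.20, -0.18 to 0.048 and -0.25 to -0.0071 in the same order. The difference between stages ran from -0.37 to 0.12 (Gja1), -0.24 to 0.072 (Gja4), -0.48 to 0.033 (Gja5) and -0.32 to 0.56 (Gjc1), with 1 to 9 genes called. E16.5 against E11.5 ran from 0.033 to 0.42 (Gja1), 0.24 to 0.39 (Gja4), -0.67 to -0.36 (Gja5) and -0.81 to 0.064 (Gjc1), and 8 weeks against E16.5 from -1.09 to -0.75 (Gjc1).

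In single cells, CPM without haemoglobin and mitochondrial genes was 56.8 (Gja1), 10.4 (Gja4), 10.8 (Gja5) and 46.2 (Gjc1) over all cells, and 271 (Gja1) and 67.3 (Gja5) in trabecular-like cells. There Gja1 was at 237 CPM with 1000 genes per barcode, 233 with members kept for clustering and 223 at Leiden resolution 2.0. At resolution 0.5, which merged trabecular- and ventricular-like cells, Gja1 was at 143 CPM and Gja5 at 33.7, with log2 ratios of -0.28 and -0.15. Bulk depth is unknown, and single-cell intervals cover counting error only.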
